A study of Mus musculus with 39 samples.

Results

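Transcripts of 10 genes of the T cell receptor and its co-receptors were read in brown fat stromal vascular cells of mice: Cd3d, Cd3e, Cd3g, Cd4, Cd8a, Cd8b1, Lck, Zap70, Cd28 and Foxp3. They were taken by gene symbol from the 29411 symbols of the array and are represented by 12 of its 40628 probes. Cd8a has 3 probes and every other gene has 1, and each gene was read from its brightest probe. The 3 CD3 genes lie on chromosome 9, Cd4, Cd8a and Cd8b1 on chromosome 6, Lck on 4, Zap70 and Cd28 on 1 and Foxp3 on X. RNA was hybridised to 39 one-colour Agilent arrays, with 1 array for each combination of diet and time label that was sampled. C57BL/6J mice, weaned at 3 to 4 weeks of age, were fed 1 of 5 diets in groups of 30 animals, and 5 animals of a group were sacrificed at each 3-week interval over 18 weeks. LFC is the low fat diet, with 10% of calories from fat (10 arrays), and HFC is the high fat, high sucrose diet, with 60% (11 arrays). HF5, HF20 and HF75 (6 arrays each) are that high fat diet given with 5, 20 or 75 µg of KAL-1, an aqueous plant formulation. The time labels are Day 1, Day 6, Day 10, Day 14 and Week 0 to Week 18, and KAL-1 diets have arrays from Week 3 on. Whether an array held RNA of 1 animal or of several is not stated. Time labels are therefore the replicates of a diet here, and all p-values measure the spread between these arrays.

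The T cell receptor has no signalling tail of its own and passes its signal through the CD3 chains. When it meets a peptide held by an MHC molecule, the co-receptor CD4 or CD8 brings the kinase Lck to the complex, Lck phosphorylates the CD3 chains, and Zap70 binds them and carries the signal on. CD28 supplies the second signal that a naive T cell needs, and Foxp3 is the transcription factor of regulatory T cells. Adipose tissue holds resident T cells among its stromal cells.

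Cd3d and Cd3g are neighbours on chromosome 9 that are transcribed away from each other, with their starts 1355 bases apart, and Cd3d and Lck were the 2 genes whose levels moved together most closely. Their start regions are shown for that reason (RefSeq, GRCm38.p6, 250 bases before to 50 after the start, each on the strand of its gene). Cd3d is at chr9:44981536-44981835 on the plus strand, Cd3g at chr9:44980382-44980681 on the minus strand, and the Lck window shown at chr4:129573592-129573891 on the minus strand. Capitals mark matches on either strand to TGTGGT (RUNX), AGGAAG (ETS), CTTTGA (TCF) or CACCTG (E-box), letters that factors of T cell genes are known to bind.

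Cd3d start: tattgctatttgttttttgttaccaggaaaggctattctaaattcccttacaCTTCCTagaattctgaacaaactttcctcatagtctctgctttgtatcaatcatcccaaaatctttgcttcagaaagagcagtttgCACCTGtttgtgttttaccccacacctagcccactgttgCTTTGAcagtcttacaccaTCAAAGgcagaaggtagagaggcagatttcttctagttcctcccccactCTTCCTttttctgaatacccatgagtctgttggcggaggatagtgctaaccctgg
Cd3g start: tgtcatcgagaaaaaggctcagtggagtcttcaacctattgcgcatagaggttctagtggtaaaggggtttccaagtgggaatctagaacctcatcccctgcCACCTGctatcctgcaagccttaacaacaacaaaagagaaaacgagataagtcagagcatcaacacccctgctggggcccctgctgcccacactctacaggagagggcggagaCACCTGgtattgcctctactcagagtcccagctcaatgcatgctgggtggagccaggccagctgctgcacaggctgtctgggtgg
Lck start: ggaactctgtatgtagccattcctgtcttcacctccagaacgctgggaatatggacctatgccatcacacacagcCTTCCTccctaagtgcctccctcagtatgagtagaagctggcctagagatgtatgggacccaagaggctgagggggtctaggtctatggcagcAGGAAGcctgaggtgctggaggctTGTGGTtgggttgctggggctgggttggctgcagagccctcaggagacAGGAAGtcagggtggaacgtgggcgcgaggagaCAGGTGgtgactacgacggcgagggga

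The Cd3d window held 2 ETS, 2 TCF and 1 E-box match, and the Cd3g window held 2 E-box matches and none of the other 3 motifs. The Lck window shown held 3 ETS, 1 RUNX and 1 E-box match. The other Lck window, at chr4:129558323-129558622 and not shown, held 1 ETS and 1 E-box match and no RUNX match. Of 32851 start regions of the same length in the RefSeq table, 16.8% held the RUNX letters, 35.4% the ETS letters, 16.0% the TCF letters and 20.2% the E-box letters. These matches describe the letters and are not evidence of binding. The table held 11 windows for 7 of the 10 genes, and Cd4, Cd8b1 and Cd28 were not among them. The probes shown read Cd3d, Cd3g and Zap70, 3 of the 5 genes that stood highest of all arrays on LFC Week 3.

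Cd3d probe: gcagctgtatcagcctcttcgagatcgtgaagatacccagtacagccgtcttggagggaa
Cd3g probe: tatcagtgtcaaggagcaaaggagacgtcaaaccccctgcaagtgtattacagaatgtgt
Zap70 probe: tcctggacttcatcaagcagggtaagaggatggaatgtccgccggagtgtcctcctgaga

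Levels are given as log2 of the processed signal minus the 75th percentile of the array, so that 0 is the level of that percentile and 1 unit is a doubling. A level was never compared between genes, because probes differ in brightness. The 75th percentile of the processed signal itself ranged from 18.1 to 3974 between arrays (median 129.9), and 31.2% to 98.0% of spots were well above background by the scanner's own mark (median 57.3%). The arrays lay on 36 slides with 18 scan dates. On HF20 Week 15, 71.4% of spots were marked as outliers and left out, and Lck was the only gene of the 10 with a value there. Zap70 also has no value on HF5 Week 12, nor Cd4 on HFC Week 12. Of the 379 values of the 10 genes, 13 sit on 6 arrays at a single value shared by many probes, which was the lowest of the array on 4 of them and close to it on LFC Week 9 and HF75 Week 9. On HF5 Week 18 this value, -3.15, was shared by 18496 probes and was that of Cd3e, Cd3g, Cd4, Cd8a, Cd8b1 and Zap70. The source names give stromal vascular cells of brown fat, while the paper lists this series as brown infiltrating macrophages. The material was checked against marker lists. Of 11 macrophage genes, 9 were well above background on LFC Week 3. Adgre1, Cd68, Csf1r, Mrc1, Cd14 and Fcgr1 were so on all 39 arrays. Ucp1 and Adipoq, which mark brown and other adipocytes, were too.

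The CD3 chains were measured on most arrays, with wide spread inside every diet. Cd3d, which encodes the delta chain, was well above background on 37 of 39 arrays. Its level was -1.24 ± 1.72 on LFC (SD, n = 10), -0.77 ± 1.56 on HFC (n = 11), -2.34 ± 2.04 on HF5 (n = 6), -1.33 ± 1.95 on HF20 (n = 5) and -0.96 ± 1.94 on HF75 (n = 6). Over all arrays it ran from -4.64 on HF75 Week 15 to 2.23 on LFC Week 3, and the 5 diets overlapped. Cd3g, the gamma chain, was well above background on 34 arrays and averaged from -2.82 ± 2.10 on HF5 (n = 6) to -1.66 ± 1.53 on HF75 (n = 6). Cd3e, the epsilon chain that pairs with both others, was well above background on 27 arrays, 3 of 10 on LFC and 6 of 6 on HF75. Its mean was -3.25 ± 1.47 on LFC (n = 10), -2.81 ± 0.99 on HFC (n = 11), -2.61 ± 1.10 on HF5 (n = 6), -1.51 ± 2.0 on HF20 (n = 5) and -1.27 ± 1.69 on HF75 (n = 6). The order of Cd3e ran from HF75 down to LFC, unlike that of Cd3d, in which HFC was highest and HF5 lowest. No 2 neighbours in either order differed by more than the smaller of their SDs. In RNA of bulk cells, fewer T cells and less RNA per T cell cannot be told apart.

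**Figure D1:**
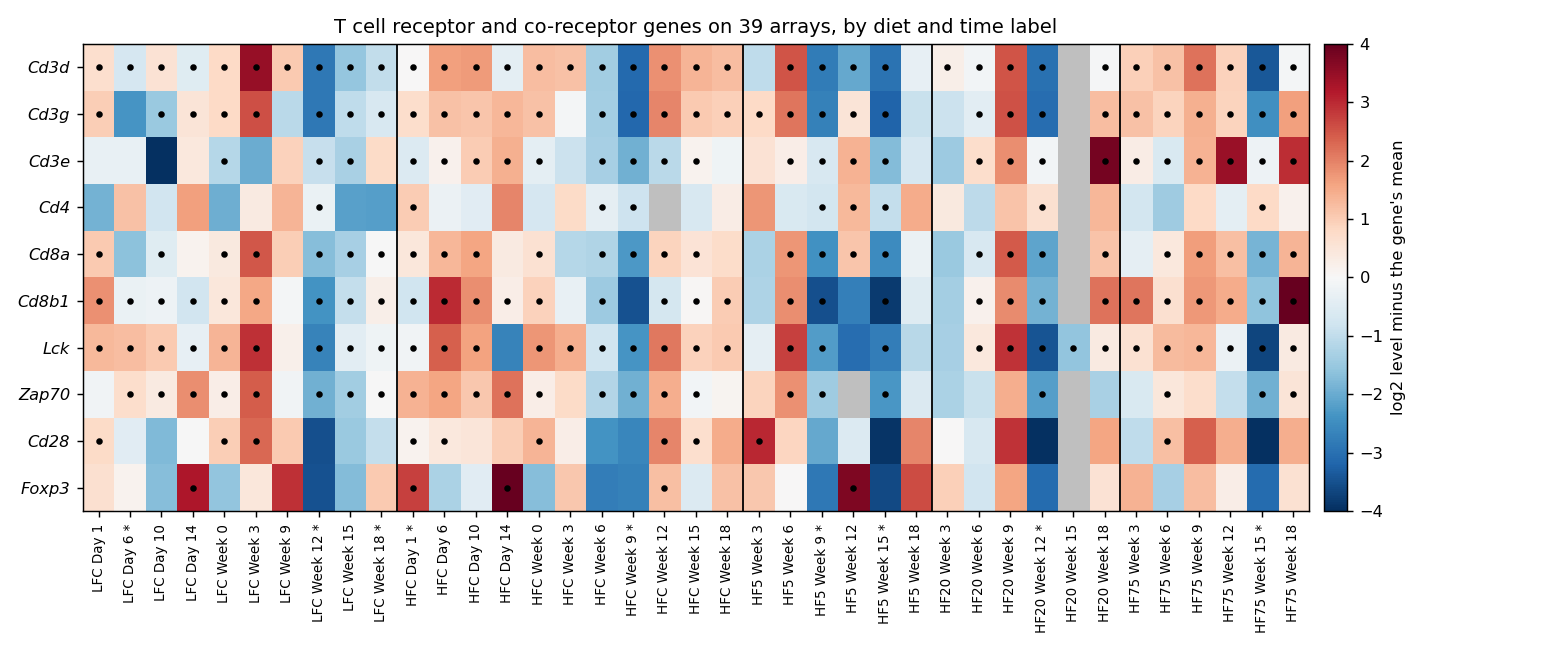
Heat map of the 10 genes (vertical) on 39 arrays (horizontal, ordered by diet and time label), coloured by log2 level minus the mean of the gene, with colours held at 4 and -4. Dots mark values well above background, grey cells have no value and an asterisk marks the 9 arrays with BA or BAT in the title. LFC Week 3 is red in 7 of the 10 genes by more than 1 unit, and most columns with an asterisk are blue.

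Of the co-receptors, Cd8a and Cd8b1, the 2 chains of CD8 on cytotoxic T cells, were well above background on 29 and 32 arrays. Cd4, the co-receptor of helper T cells, was so on only 11 arrays, 7 of them among the 9 with BA or BAT in the title. Cd8b1 averaged -1.10 ± 2.10 on HF75 (n = 6), -2.43 ± 1.84 on HF20 (n = 5), -2.61 ± 1.73 on HFC (n = 11), -2.70 ± 1.22 on LFC (n = 10) and -4.29 ± 2.15 on HF5 (n = 6). The step from LFC to HF5 was 1.60. In any order of the 10 genes it was the single gap between neighbours past the smaller SD of the pair. Cd8b1 was well above background on only 3 of the 6 HF5 arrays. Its lowest HF5 values, -6.15 at Week 9 and -6.45 at Week 15, were on arrays with BA or BAT in the title. Cd8a averaged between -3.48 ± 1.80 on HF5 (n = 6) and -2.47 ± 1.34 on HF75 (n = 6), a span of 1.00. Cd4 averaged between -5.12 ± 1.54 on LFC (n = 10) and -4.15 ± 0.94 on HF20 (n = 5), with most of these values below the mark for background.

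The kinases were measured on about as many arrays as the CD3 chains. Lck, the kinase held by the co-receptors, was well above background on 33 arrays. It averaged -1.40 ± 1.5 on LFC (n = 10), -1.37 ± 1.76 on HFC (n = 11), -2.98 ± 2.15 on HF5 (n = 6), -2.30 ± 2.18 on HF20 (n = 6) and -1.91 ± 1.86 on HF75 (n = 6). Zap70, the kinase that binds phosphorylated CD3 chains, was well above background on 26 arrays and averaged from -3.40 ± 1.38 on HF20 (n = 5) to -2.06 ± 1.24 on HFC (n = 11). Cd28 and Foxp3 were near the limit of the arrays. Cd28 was well above background on 11 arrays and its diet means lay between -4.67 on LFC and -4.11 on HFC. Foxp3 was well above background on 6 arrays, of which none were HF75 arrays, so that its level on HF75 is only a bound, beside a mean of -5.02 ± 2.19 on HFC (n = 11, 3 of them well above background). The 6 arrays with Foxp3 above background were LFC Day 14, HFC Day 1, HFC Day 14, HFC Week 12, HF5 Week 12 and HF20 Week 15, the last of which has no usable value.

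LFC Week 3 is set apart, since its high level was known when the genes were chosen, and its values are a description without a test. Cd3d stood there at 2.23, above the next array, HF5 Week 6, at 1.27, and 11-fold above the median of the other arrays. Lck stood at 1.08, Zap70 at -0.13, Cd8a at -0.39 and Cd3g at 0.33, and each was the highest of all arrays with a value. The lead over the next array was small for 3 of them. HF20 Week 9 lay at 1.05 for Lck, -0.42 for Cd8a and 0.29 for Cd3g. These 3 values were well above background, on the array with the lowest 75th percentile of all, 18.1. Above the median of the other arrays the differences were 2.66 for Lck, 2.39 for Zap70, 2.14 for Cd8a and 1.87 for Cd3g. Cd28 ranked 4 at -2.08, and Cd8b1 ranked 10 at -1.08. Cd4 (-4.28) and Foxp3 (-4.64) were not well above background there and ranked 16 and 19. Cd3e went the other way: it was not well above background, stood at -4.47 and ranked 37. Its own partners in the complex, Cd3d and Cd3g, ranked first. Thus 5 of the 10 genes were highest on LFC Week 3, where 2.12% of 24661 genes were, and 4 of 10 were at least 4-fold above the median of the others, where 2.69% were. With normexp background correction 3 were highest and 0 reached 4-fold, and with quantile normalization 3 were highest and 6 reached 4-fold. The shares of all genes given above were counted with the main scaling, so they are not the background for these counts.

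**Figure D2:**
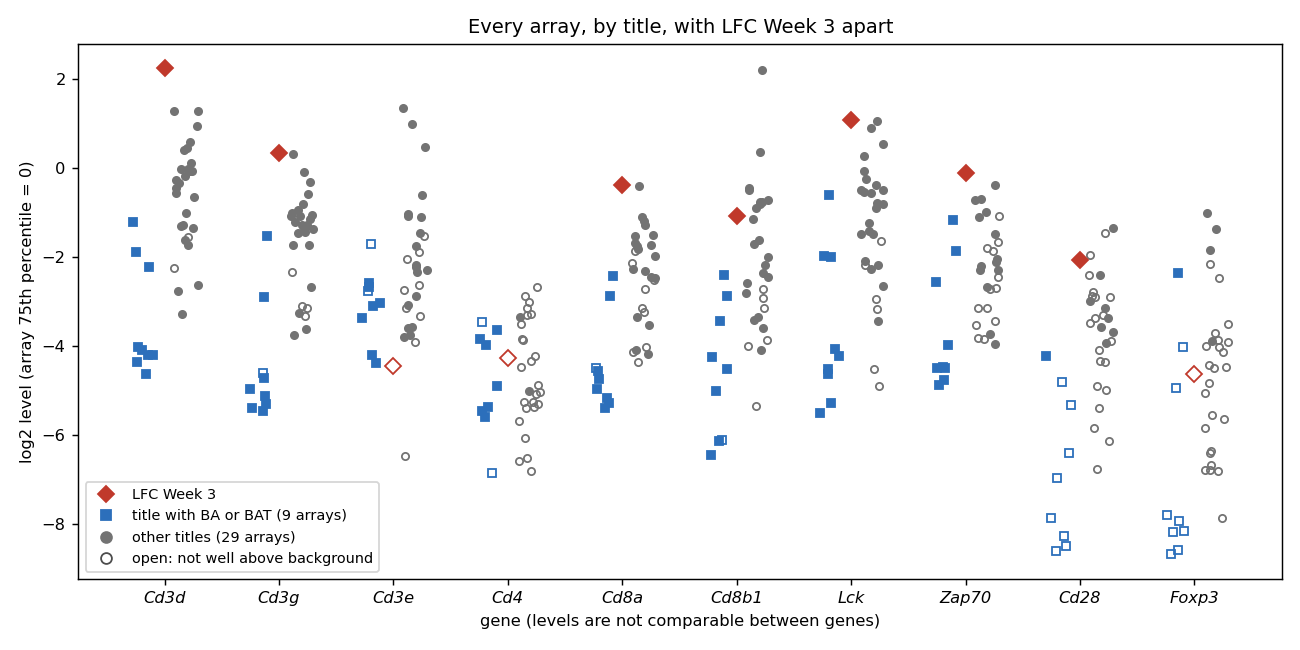
Log2 level (vertical, 75th percentile of the array = 0) of each gene (horizontal) on every array, with LFC Week 3 as red diamonds, the 9 arrays with BA or BAT in the title as blue squares and the 29 others as grey circles, open where not well above background. LFC Week 3 tops 5 genes and lies near the bottom for Cd3e, and the blue squares lie low for most genes and overlap the grey circles most for Cd3e and Cd4.

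Other lymphocyte genes stood high on the same array. Of 21 genes of T cell receptor signalling, 10 were at least 4-fold above the median of the other arrays and 9 were the highest of all arrays. The adaptor Grap2 was 3.92 above that median on the log2 scale, the kinase Txk 3.71 and the surface glycoprotein Cd5 3.56. Of 9 tested costimulation and checkpoint genes 4 passed 4-fold (Icos 2.52, Tnfrsf4 2.51, Btla 2.45, Cd27 2.41), as did 4 of 13 T cell transcription factors (Satb1 3.25, Tcf7 3.05, Lef1 3.02, Ikzf1 2.42) and 4 of 8 homing and cytokine receptors. Among the receptors were Ccr7 (4.44), which guides lymphocytes into lymph nodes, and Il7r (3.46). Of 12 B cell genes 7 passed, led by Ms4a1 (4.60) and Fcrla (4.20). Of 6 lymph node stroma genes 2 passed: Glycam1, a product of high endothelial venules, stood at 5.14, with HFC Week 3 next at 2.73, and the Ccl21 probe was 2.30 above the median. Glycam1, Grap2, Btla and Fcrla were well above background on only 11, 15, 17 and 18 of 39 arrays, so their medians rest on arrays where most values were not, and their distances from them are not exact. Natural killer genes gave 1 of 10 (Klrd1 2.84) and fast muscle genes 1 of 7 (Pvalb 2.97). No gene passed of 11 macrophage genes (median -0.58), 5 dendritic, 9 neutrophil, 8 general adipocyte, 8 brown adipocyte, 5 erythroid, 5 endothelial and 7 cell cycle genes. The 6 tested thymus genes also gave 0, and of all 10 on that list only Ccl25 was well above background there. The part of lymph node, B cell or other cell material in the level of the 10 genes was not tested.

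**Figure D3:**
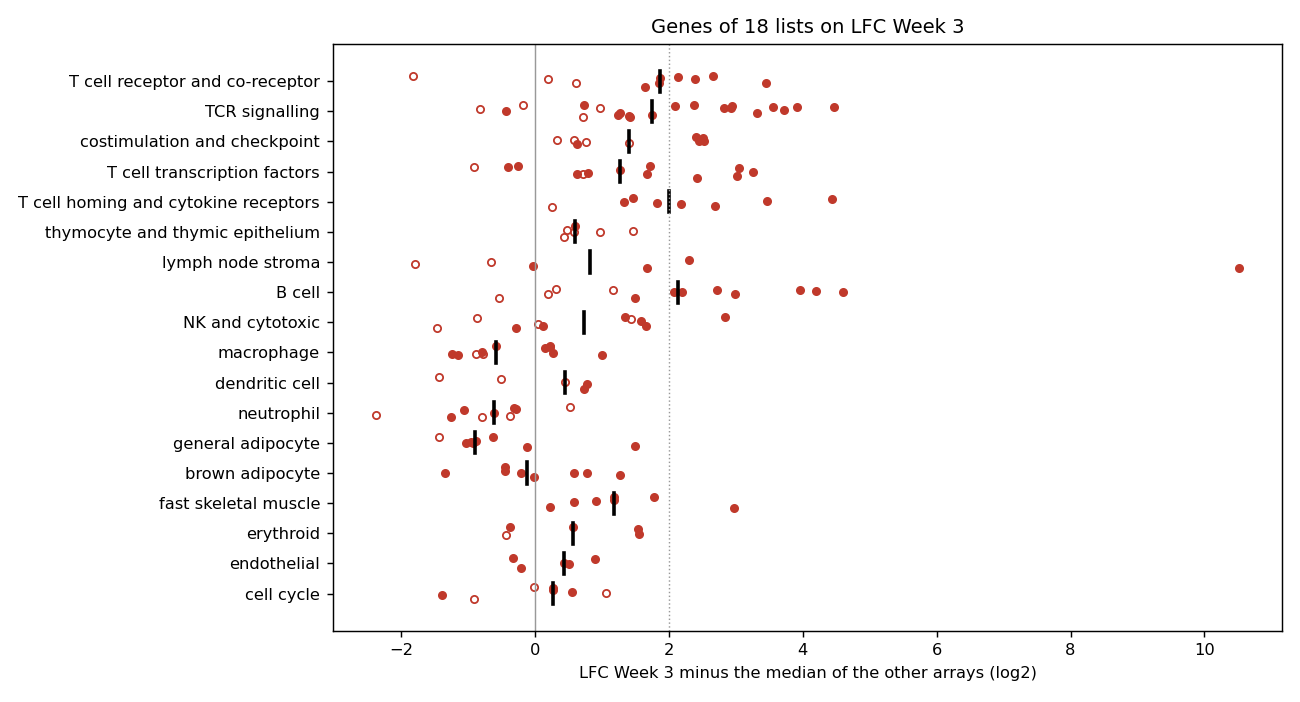
LFC Week 3 level minus the median of the other arrays (horizontal, log2) for the genes of 18 lists (vertical), each point a gene, open where not well above background on LFC Week 3, with bars at list medians and a dotted line at 4-fold. The T cell and B cell lists have their medians to the right of 0, and the macrophage list has its median at -0.58. Glycam1 is the point at 10.52, a distance from a median that is not well above background.

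Diet was compared within time labels by limma on all 39 arrays, to ask whether high fat feeding, or KAL-1 given with it, went with other levels of these genes. Of 34035 probes none was called at an adjusted p under 0.05 for HFC against LFC (0%), HF5 against HFC (0%), HF20 against HFC (0%) or HF75 against HFC (0%), and none of the 10 genes was. At an unadjusted p under 0.05 limma gave 959 probes (2.82%), 498 (1.46%), 907 (2.66%) and 1210 (3.56%) in that order, and 0, 0, 0 and 2 of the 10 genes. For HFC against LFC the 10 estimates ran from -0.08 (Lck) to 0.89 (Cd3g), with SEs from 0.46 to 0.85, and their median was 0.36 beside 0.05 over all probes. With LFC Week 3 left out that median was 0.60, and with normexp background correction it was -0.36 and 9 of 10 estimates were below 0, so no direction is read from it. For HF5 the median was -0.47, with Cd3d at -1.38 (SE 0.96) and Lck at -1.41 (SE 0.90), and with normexp it was 0.13. For HF20 it was -0.36, with normexp 0.25 and with outlier-marked spots kept 0.40. For HF75 it was 0.20, with normexp 0.63, without the time term -0.12 and with array weights -0.58. Without the 9 arrays that carry BA or BAT in the title, the medians for HF5 and HF75 were 0.14 and -0.12, so no direction is read from these either. The 3 Cd8a probes had estimates of both signs for HF5, HF20 and HF75, between -1.20 and 0.49.

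**Figure D4:**
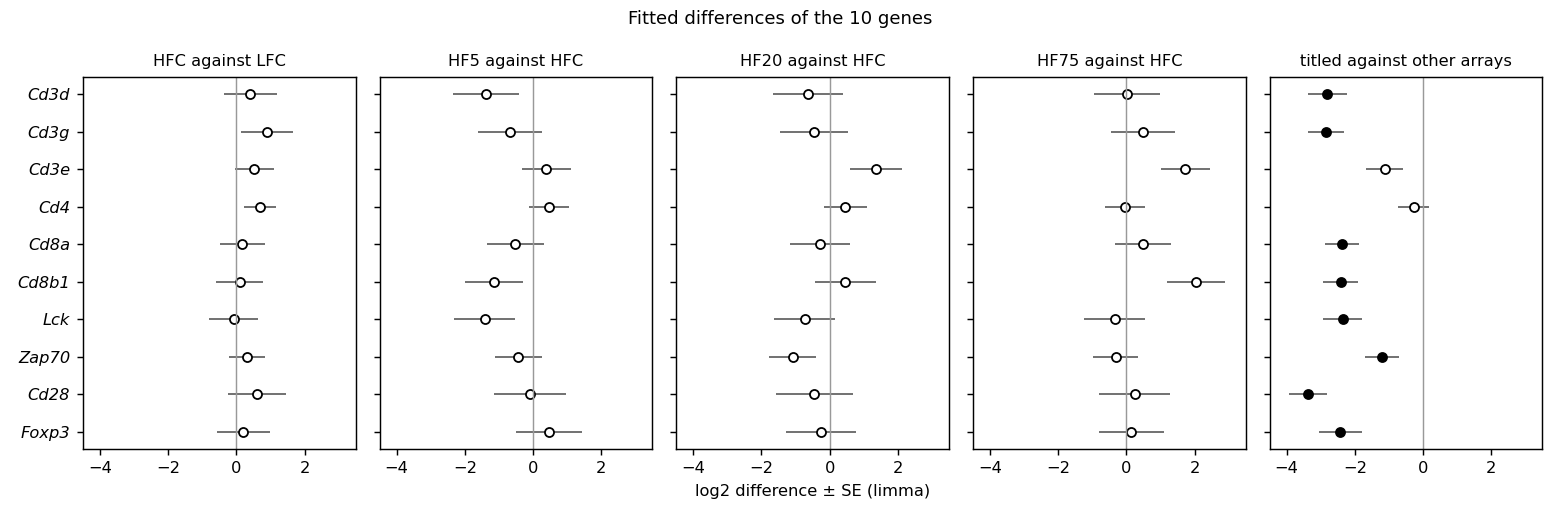
Log2 difference ± SE by limma (horizontal) of the 10 genes (vertical) in 5 panels: 4 diet comparisons and arrays with BA or BAT in the title against the others. Filled points have an adjusted p under 0.05, of which there are none in the diet panels and 8 in the last.

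Cd3e and Cd8b1 were the 2 genes past an unadjusted threshold for HF75. On HF75, Cd3e was -2.18 at Week 3, -3.09 at Week 6, -1.10 at Week 9, 0.99 at Week 12, -2.69 at Week 15 and 0.47 at Week 18. On HFC it was -3.35, -3.81, -4.39, -3.57, -2.35 and -2.65 at the same labels, so that HF75 was higher at 5 of 6. The limma difference was 1.73 (SE 0.72, unadjusted p 0.023, adjusted p 1.00). Cd8b1 on HF75 was -0.49, -2.0, -0.91, -1.15, -4.26 and 2.19 from Week 3 to Week 18, against -2.93, -4.10, -6.12, -3.35, -2.59 and -1.62 on HFC. It was also higher at 5 of 6 labels, Week 15 being the exception, and the limma difference was 2.04 (SE 0.84, unadjusted p 0.022, adjusted p 1.00). On HFC, Cd3e at Week 3 and Week 18 and Cd8b1 at Week 3 and Week 9 were not well above background. Those levels and the distances from them are not exact. HFC Week 9 and HF75 Week 15 are arrays with BA or BAT in the title. Without all such arrays the differences were 1.69 for Cd3e and 2.02 for Cd8b1. Neither gene was under the unadjusted threshold by limma with normexp (1.23 and 1.25), with array weights (1.02 and 1.34), without Week 12 (1.19 and 1.93) or without Week 18 (1.52 and 1.64). Over dose rank on the high fat diet at Week 3 to Week 18 (24 arrays), limma called 0 probes (0%), with 2395 (7.04%) under an unadjusted 0.05, and again Cd3e and Cd8b1 were the 2 genes among them. Cd3e differed by 0.72 per step of dose (SE 0.23, unadjusted p 0.0053, adjusted p 0.526) and Cd8b1 by 0.87 (SE 0.30, unadjusted p 0.0099, adjusted p 0.532). Among partner chains the slope was 0.11 (SE 0.35) for Cd3d, 0.24 (SE 0.33) for Cd3g and 0.28 (SE 0.26) for Cd8a, and the difference between slopes was not tested. With normexp background correction the slopes were 0.40 for Cd3e and 0.43 for Cd8b1, at unadjusted p of 0.058 and 0.057 by limma, and without Week 9 the Cd8b1 slope, 0.62, was not under the threshold.

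Over time on the LFC and HFC diets (21 arrays), limma called 0 probes (0%), with 4057 (11.9%) under an unadjusted 0.05. All 10 genes had a slope below 0 per doubling of days, with a median of -0.16 beside -0.05 over all probes, and with quantile normalization 7 of 10 did. Zap70 alone was under the unadjusted threshold, at -0.25 (SE 0.12, unadjusted p 0.047, adjusted p 0.413). Without the arrays that carry BA or BAT in the title its slope was -0.17 (unadjusted p 0.254 by limma). The median of the 10 genes was then -0.09, with 8 of 10 below 0. Time label by time label, the median HFC minus LFC difference of the 10 genes changed sign. It was 1.65 at Day 10, where all 10 were higher on HFC. At Week 3 it was -1.76, a difference from the LFC Week 3 array set apart above for its high level. It was -3.08 at Week 9, where all 10 were lower, and 4.67 at Week 12, where 8 of 9 were higher. HFC Week 9 and LFC Week 12 both carry BA or BAT in the title. LFC Week 9 held no value below -3.47, with 1 of the 10 genes well above background. All 10 HFC Week 9 values lay below that, the highest being Lck at -4.22. The sign at Week 9 was therefore fixed by the range of LFC Week 9. HF20 minus HFC went from 5.02 at Week 9 to -4.28 at Week 12, and each of these pairs also holds 1 array with BA or BAT in the title. HF20 Week 9 held no value below -3.59, so its sign against HFC Week 9 was fixed as well.

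The 9 titles with the letters BA or BAT run together (HFC Day 1, LFC Day 6, HF5 and HFC Week 9, LFC and HF20 Week 12, HF5 and HF75 Week 15, LFC Week 18), where other titles have B alone or B-A, are not explained by the labels. They were set against the 30 other arrays with diet and time label in the fit, a comparison chosen after the data were seen. Cd3d was -4.64 at lowest, -4.09 in the median and -1.22 at highest on the 9 titled arrays, against -3.28, -0.34 and 2.23 on the others. Cd3g was -5.47, -4.97 and -1.54 against -3.76, -1.29 and 0.33. Lck was -5.51, -4.22 and -0.61 against -4.91, -1.09 and 1.08. For Cd3d and Cd3g the titled median lay below every other array. Some of the other arrays could not give a level that low. The lowest value of any probe was -3.15 on HF5 Week 18, -3.47 on LFC Week 9, -3.59 on HF20 Week 9 and -3.94 on HF75 Week 9. On these the order was fixed by the range of the array. Titled and other arrays overlapped for Cd3d on HFC Day 1, LFC Day 6 and LFC Week 18 alone. By limma 8 of the 10 genes were lower at an adjusted p under 0.05, where 10834 of 34035 probes were lower (31.8%), and the median difference was -2.40 beside -0.30 over all probes. The differences were -2.84 (SE 0.54, adjusted p 0.00032) for Cd3g, -2.81 (SE 0.57) for Cd3d, -2.38 (SE 0.49) for Cd8a, -2.42 (SE 0.51) for Cd8b1, -2.36 (SE 0.57) for Lck and -1.21 (SE 0.50, adjusted p 0.042) for Zap70. Cd28 (-3.37) and Foxp3 (-2.43) were lower too, but each was well above background on 1 of the 9. Cd3e differed by -1.13 (adjusted p 0.082) and Cd4 by -0.27 (adjusted p 0.631). Zap70 lost its call when any 1 of the labels from Week 3 to Week 15 was left out, with differences from -1.26 to -0.61, and Foxp3 without Week 9 (-1.45) or Week 12 (-1.54). Cd3e was called without Day 10 (-1.18) or Week 18 (-1.52).

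Over all probes the comparison gave 6986 higher and 10834 lower, and under quantile normalization 6942 higher and 3483 lower, with the median of all probes at 0.18. The median of the 10 genes was then -1.61, and 7 of them were called, of which Cd4 was 1.01 higher (adjusted p 0.042 by limma) and the other 6 lower. Under normexp background correction all 10 were lower, with a median of -2.28 beside -1.30 over all probes. Restricted to arrays where the probe was well above background, Cd3d averaged -3.44 ± 1.27 on titled arrays (SD, n = 9) and -0.46 ± 1.28 on the others (n = 27). Lck averaged -3.65 ± 1.70 (n = 9) and -0.83 ± 1.17 (n = 24). The restriction left out no titled value of these 2 genes. Unrestricted, the other arrays averaged -0.56 ± 1.29 for Cd3d (n = 29) and -1.31 ± 1.53 for Lck (n = 30). It thus removed low values from the other arrays alone and widened the difference, and it is no check on low signal. Against the other arrays of the same time label, Cd3d, Cd3g, Cd8a, Cd8b1, Lck and Cd28 were lower on 9 of 9 titled arrays, Cd3e on 8, Zap70 and Foxp3 on 7 and Cd4 on 4. All arrays of Week 12 share a scan date, as do those of Week 15, and the median differences of the 10 genes there were -2.81 and -2.23. They were -0.44 at Day 1, -1.01 at Day 6, -3.99 at Week 9 and -0.97 at Week 18, where the titled array was the lowest for 3 of the 10. At Week 9 the other arrays (LFC, HF20 and HF75) held no value below -3.47, -3.59 and -3.94, so most of that order was fixed by their range. Other lists were counted in the same comparison, in which 31.8% of all probes were lower: 19 of 21 receptor signalling, 7 of 9 costimulation, 8 of 13 transcription factor, 6 of 8 homing, 10 of 12 B cell, 10 of 10 natural killer, 9 of 9 neutrophil, 5 of 5 erythroid, 5 of 7 cell cycle, 6 of 11 macrophage, 4 of 6 lymph node stroma, 3 of 6 thymus, 2 of 5 dendritic and 2 of 5 endothelial genes were lower, while 3 transcription factor, 1 costimulation and 1 thymus gene were higher. Of 8 general adipocyte genes 5 were higher and 1 lower, of 8 brown adipocyte genes 3 were higher, and no muscle gene was called. The 75th percentile of the processed signal had a median of 852 on titled arrays and of 78.9 on 29 others, with HF20 Week 15 left out. The part of these in the lower level of the 10 genes was not tested.

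A joint level was taken as the mean of the 7 genes that were well above background on 20 or more arrays (Cd3d, Cd3e, Cd3g, Cd8a, Cd8b1, Lck and Zap70), each minus its own mean. It was highest on HF20 Week 9 (2.24), LFC Week 3 (1.93) and HF5 Week 6 (1.88). HF20 Week 9 also had the lowest 75th percentile of the arrays, 18.1. The lowest joint levels were on HF5 Week 15 (-2.76) and HFC Week 9 (-2.61). HFC Week 6, which has no such title, was also low at -1.25. Across 38 arrays the joint level and log2 of the 75th percentile had r = -0.68, with -0.77 over the 9 titled and -0.34 over 29 other arrays. The 2 quantities share the array and its scaling, since the percentile is subtracted from each level, and these coefficients are a description.

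**Figure D5:**
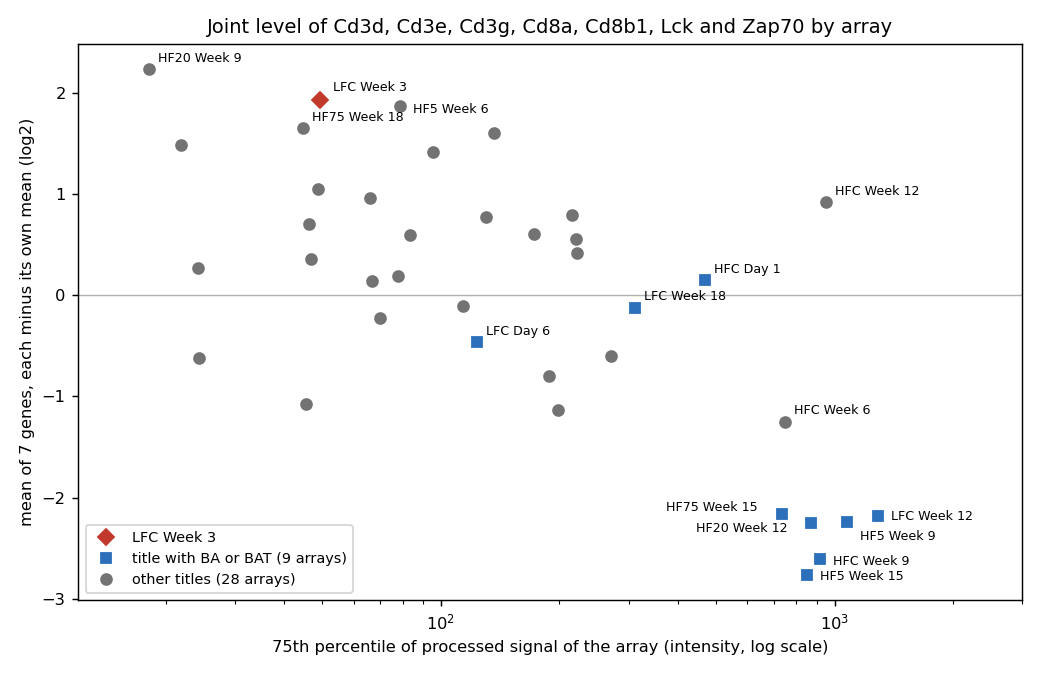
Joint log2 level of 7 genes (vertical) against the 75th percentile of the processed signal of the array (horizontal, log axis) for the 38 arrays with at least 5 of the 7 values. LFC Week 3 is a red diamond, titled arrays are blue squares, and 6 of the 9 squares lie together below -2 at high percentiles.

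Between genes, levels over the arrays had a median r of 0.57 over 45 pairs, which share arrays and scaling. The closest were Cd3d and Lck (r = 0.91, n = 38), Cd3g and Cd8a (0.89) and Cd3d and Cd3g (0.83), and the 2 CD8 chains had 0.77. Cd3e stood apart, with 0.15 to Cd3d, 0.05 to Lck and 0.43 to Cd3g, and so did Cd4, with -0.18 to Lck. Without LFC Week 3 the median was 0.58, and without titled arrays it was 0.41, with Cd3d and Lck still at 0.85. Of 24659 genes, 224 had r over 0.8 with the mean profile of the 10, where the median of all was 0.28. Among the most like were A430107D22Rik, Fcer2a and Skap1 (each 0.92), then Cd6, Fasl, Gm4955 and Cd27 (each 0.90). Of these, Skap1 and Cd6 belong to the list of T cell receptor signalling, Cd27 to costimulation, and Fcer2a to B cells. Without LFC Week 3, Klra3 (0.90) took the place of Cd27.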

How the data were processed

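Total RNA was labelled with Cy3 and hybridised to 39 one-colour Agilent mouse arrays. The deposited scanner files hold spot intensity that the authors extracted with Agilent Feature Extraction (version 9.1 per the submitters' processing notes, 10.5.1.1 per the file headers), background-subtracted there. A deposited series table gave gene symbols and GeneIDs. Its 39 columns of log2 differences made by the authors were not used.

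Processed signals of spots not marked as outliers were averaged per probe, scaled by the 75th percentile of the array and taken to log2. Probes well above background on at least 6 arrays (34035, 83.8%) entered the fits, run in limma 3.58.1 (R 4.3.3, with statmod 1.5.0 for blocks), with Benjamini-Hochberg adjustment over all of them and a threshold of 0.05, two-sided. Diet and time label were terms in the fit. Time labels stood in for replicates, because 1 array was found per diet and label, although the design text speaks of 3 biological replicates. The number of arrays limits the precision. Weeks were counted from Day 14. HF20 Week 12 was grouped by its title and source name, since 1 of its characteristics gives the high fat diet alone. LFC Day 1 was grouped by its diet characteristic.

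Every one of the 10 genes is named and read from its brightest probe. Marker genes are named by the size of their level on LFC Week 3, and genes most like the 10 by Pearson correlation with their mean profile. Some genes that these rules select are not reported here. A 4-fold difference and the highest rank describe LFC Week 3. The 10 genes and all lists were chosen with earlier results of these data known, so nothing here is independent support for them. Lists covered T cell receptor signalling, costimulation and checkpoint, T cell transcription factors, homing and cytokine receptors, thymus, lymph node stroma, B, natural killer, macrophage, dendritic, neutrophil, general and brown adipocyte, fast muscle, erythroid, endothelial and cell cycle genes. Scripts were tested on simulated data. Alternatives were quantile normalization, normexp correction (offset 50), outlier spots kept, no filter, the median of a gene's probes, no time term, array weights, scan date or slide as a random block, the methods' t-test, and left-out arrays or time labels.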

Additional observations from a re-analysis of the deposited data

Results flagged for a closer look

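In the HF75 group of 6 arrays, Cd3g on HF75 Week 15 was the lowest at -4.72, with the nearest other array at -1.37, so that the gap took a share of 0.813 of the range of the group. Lck on the same array was the lowest at -5.51, with the nearest at -2.10 and a share of 0.683. Both shares exceed the critical value for 6 arrays. HF75 Week 15 is an array with BA or BAT in the title. Both genes were lower on such arrays by limma, a comparison that includes HF75 Week 15. Of 41 combinations of gene and diet examined, these 2 were flagged, about the share of 1 in 20 that chance alone marks. Both lie on the same array and are not independent.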

How the results depend on the processing

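No gene of the 10 was called in any diet, dose or time comparison under any alternative run. Over all probes, quantile normalization gave 3 calls for HFC against LFC and 5 for the time trend, array weights gave 32, 23 (dose) and 156 (time), and omission of the titled arrays gave 2 for HFC against LFC and 3 for HF75. Omission of 1 time label gave at most 7. Leaving out 1 time label at a time moved the median of the 10 genes between -0.02 and 0.85 for HFC against LFC, -1.14 and -0.03 for HF5, -1.44 and 0.42 for HF20, -0.27 and 0.92 for HF75 and, for the slopes over dose and over time, -0.24 and 0.36, and -0.20 and -0.12. The lowest value of the dose trend, -0.24, came without Week 9. For arrays with BA or BAT in the title, 6 to 9 of the 10 genes were called lower with 1 label left out (median -2.71 to -1.92), with 17820 probes called against 10425 with quantile normalization, 28375 with normexp, 10308 without Week 9 and 10061 without Week 12. The median of the 10 was -1.61 with quantile normalization and -3.48 with array weights. The LFC Week 3 counts depended on scaling: 5 genes were highest, and 3 with quantile normalization or normexp, while 4 were at least 4-fold above the median of the others, 6 with quantile normalization and 0 with normexp, and the median gene lay 1.86, 2.22 and 0.39 above. The cause was not tested, and no share of all genes is given for the other scalings. Some array weights did not converge, and slide as a block could not be fitted usefully for the time trend, where each slide held 1 array. The time label paired arrays of different diets in the fit, and without it the medians of the 10 genes were 0.38 for HFC against LFC, -0.80 for HF5, -0.30 for HF20 and -0.12 for HF75. By replicate number no paired analysis was possible because these numbers only name arrays. Low signal limits Cd4, Cd28 and Foxp3 most.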
